A study of Mus musculus with 6 samples.

Results

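The serpins (serine protease inhibitors) were followed in the liver of DUhTP (marathon) mice and DUC controls on Affymetrix mouse genome GeneChip arrays. Every probe set whose array annotation gives exactly 1 gene symbol, and whose symbol begins with Serpin, was taken. This gave 39 probe sets of 30 genes, out of 22626 probe sets tested, of which 20380 carry 1 symbol for 12393 genes. A further 3 Serpin probe sets carry several symbols and are given separately. DUhTP mice are a line bred over many generations for treadmill performance, without training, and DUC mice are the unselected control line. Both lines go back to the same crossbred, non-inbred base population, so that the mice within a line differ genetically, and the sources state no treatment of either line. All mice were male and 70 days old, and each line is represented by 3 arrays of total liver RNA. The methods speak of pools and the labels of a single mouse per array, so the SDs and p-values below measure only the spread between arrays.

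Serpins are folded so that an exposed loop acts as bait for a protease, which cleaves it and is trapped, and both partners are then cleared. Members are sorted by sequence into clades, named by the letter after Serpin in the symbol. In liver, hepatocytes secrete many clade A, C, D, F and G serpins into plasma, where these restrain clotting, fibrinolysis, complement and leukocyte proteases. Clade B serpins mostly stay inside cells and protect them from their own proteases. Some members inhibit nothing and serve as hormone carriers or chaperones.

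By the RefSeq annotation of GRCm38.p6, 8 of the 30 genes lie on chromosome 12, 9 on chromosome 13, 6 on chromosome 1, 2 each on chromosomes 11 and 3, and 1 each on chromosomes 2, 7 and 16. The chromosome 12 genes hold the member with the largest difference between the lines, Serpina12, beside the pair that is brightest in liver, Serpina1b and Serpina1c, and the acute phase member Serpina3n. For these 4 genes the 150 bases before the annotated start are printed to show how far clade A genes of this chromosome share their start regions. The sequences are from RefSeq on GRCm38.p6 and run 5′ to 3′ on the strand of the gene. Capitals mark a match to a searched motif.
Serpina12 (chr12:104044444-104044593, minus strand): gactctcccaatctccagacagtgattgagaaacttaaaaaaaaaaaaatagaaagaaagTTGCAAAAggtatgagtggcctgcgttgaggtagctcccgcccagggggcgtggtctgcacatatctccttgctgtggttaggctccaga
Serpina3n (chr12:104406558-104406707, plus strand): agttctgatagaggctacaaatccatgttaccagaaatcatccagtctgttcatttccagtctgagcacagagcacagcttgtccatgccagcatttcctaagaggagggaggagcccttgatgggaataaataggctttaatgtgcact
Serpina1b (chr12:103738190-103738339, minus strand): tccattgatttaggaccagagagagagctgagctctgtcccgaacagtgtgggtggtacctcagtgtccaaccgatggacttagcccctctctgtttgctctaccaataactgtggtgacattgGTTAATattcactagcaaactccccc
Serpina1c (chr12:103904951-103905100, minus strand): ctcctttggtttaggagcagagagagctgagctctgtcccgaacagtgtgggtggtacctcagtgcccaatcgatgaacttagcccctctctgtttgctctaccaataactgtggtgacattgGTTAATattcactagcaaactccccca

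The Serpina1b and Serpina1c windows were identical at 142 of 152 aligned positions (93.4%), while that of Serpina12 matched Serpina3n at 45.2% and Serpina1c at 45.1%. The alignment allowed gaps and no share for unrelated windows was computed, so the Serpina12 shares are not read as likeness. The motifs searched on both strands were a C/EBP motif (TTGCNNAA), a STAT motif (TTCNNNGAA), an HNF1 motif (GTTAAT) and the TATA box (TATAAA). Serpina12 held 1 C/EBP match, TTGCAAAA, beginning 90 bases before the start. Serpina1b and Serpina1c held 1 HNF1 match each, 26 and 27 bases before the start, and Serpina3n held none of the 4 motifs. Among all 32851 RefSeq windows of this length, 5.46% held the C/EBP motif, 4.09% the STAT motif, 3.71% the HNF1 motif and 7.57% the TATA box. Among the 29 windows of the 26 Serpin genes that have one, the numbers were 2, 2, 3 and 4. The TATA count includes 2 overlapping windows of Serpinb2 that hold the same match. A match describes letters and no binding was measured.

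The arrays report a PLIER intensity, a linear value in arbitrary units that combines the probes of a probe set. It depends on the probes as well as on the RNA, so it is compared here between arrays for 1 probe set and never between genes as an amount of RNA. By mean log2 intensity over the 6 arrays, the tested probe sets were divided into bright, middle and dim classes of 7542 each, with bounds at 119 and 27.7. Of the Serpin probe sets, 14 were bright, 11 middle and 14 dim. The clades differed in this respect. In clade A 6 of 10 probe sets were bright, and so was every probe set of clades C, D, F and G. In clade B 1 of 18 was bright, 6 were middle and 11 dim. Both clade H probe sets were middle, and clade I had 1 in each class. Most probe sets of the secreted clades A, C, D, F and G were thus bright, apart from those of Serpina3a, Serpina5 and Serpina12 in clade A. Most probe sets of the mainly intracellular clade B were dim.

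Dim signals were also the least repeatable. The median SD of log2 intensity within the lines was 0.08 for bright Serpin probe sets, 0.24 for middle and 0.71 for dim ones, against 0.14, 0.21 and 0.48 over all probe sets of these classes. Bright Serpin signals were therefore tighter between arrays, and dim ones looser, than the usual probe set of their class.

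**Figure D1:**
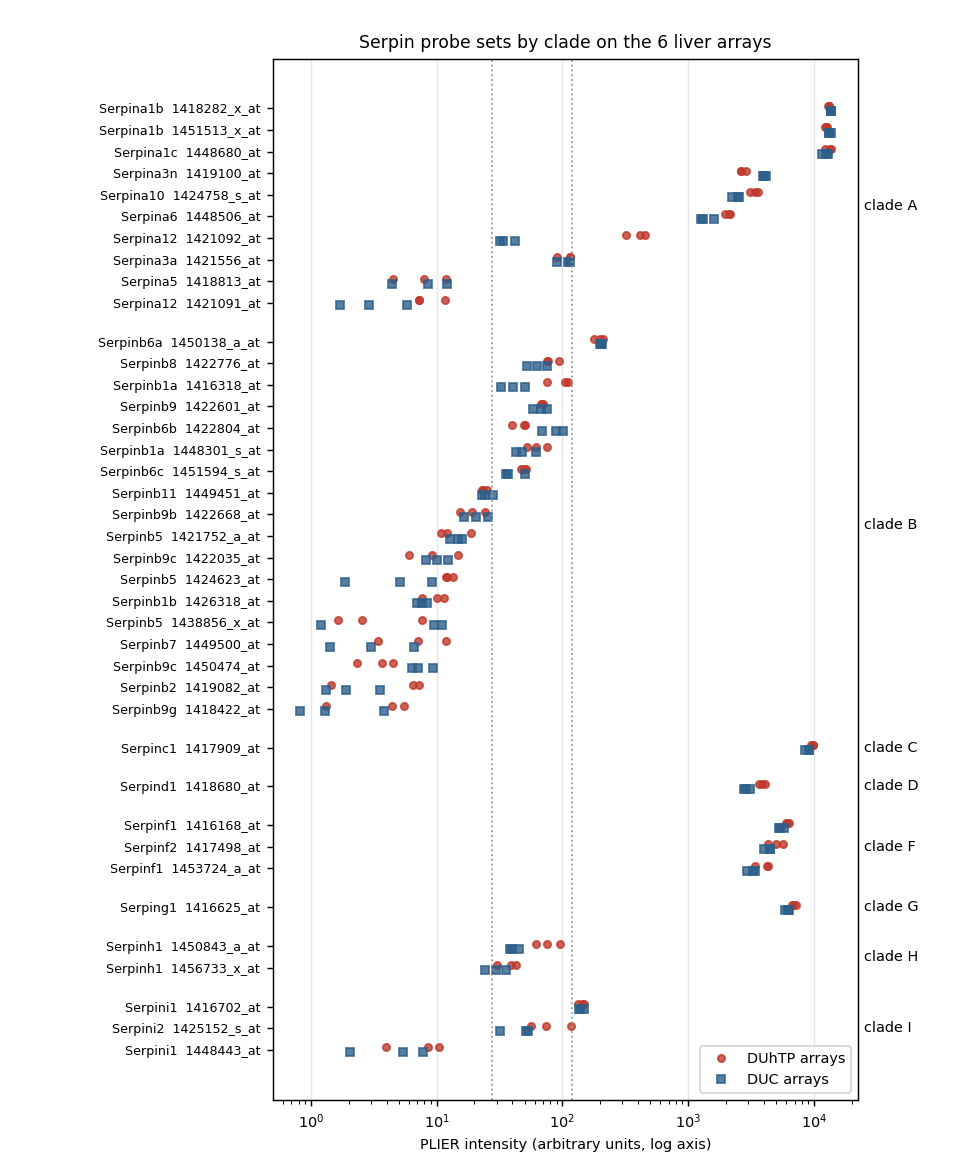
PLIER intensity (arbitrary units, log axis) of the 39 Serpin probe sets, ordered by clade and then by mean, with 1 red circle per DUhTP array and 1 blue square per DUC array. Dotted lines at 27.7 and 119 separate dim, middle and bright. Probe set 1421092_at of Serpina12 shows the widest gap between the colours among bright and middle rows, at 319 to 451 in DUhTP and 31.7 to 41.7 in DUC.

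The lines were compared by limma on log2 intensity, with p adjusted by the Benjamini-Hochberg method over all 22626 probe sets. A positive log2 fold change or fold change (FC) means higher abundance in DUhTP mice and a negative one lower. At an adjusted p under 0.05, 1 of the 39 Serpin probe sets was called (2.56%), against 2.41% of all probe sets. This was Serpina12, higher in DUhTP mice, as were 1.36% of all probe sets. It also had an FC over 2, a joint threshold passed by 1.45% of all probe sets. A second scale, on which 16 is added to every intensity before the log and which damps differences among dim probe sets, gave 7 called Serpin probe sets (17.9%), 5 higher and 2 lower, against 8.62% of all probe sets, 3.92% being higher and 4.7% lower. At an FC over 2 this scale again called 1 Serpin probe set, against 1.49% of all. The 7 were Serpina12, Serpina6, Serpina10, Serpinb1a and Serpinh1 on the higher side and Serpina3n and Serpinb6b on the lower side. With 3 arrays against 3, an exact permutation test of 1 probe set cannot give a p below 0.10.

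Since calls are more frequent among bright probe sets, the Serpin counts were also set against their own brightness class. Of the 14 bright Serpin probe sets 0 were called, against 4.3% of all bright ones, of the 11 middle ones 1 was called, against 1.96%, and of the 14 dim ones 0, against 0.981%. At an unadjusted p under 0.05 the counts were 4, 4 and 3, and 11 of all 39, against 21.1% of all probe sets. With 16 added, 3 bright, 4 middle and 0 dim Serpin probe sets were called, against 15.3%, 8.02% and 2.53% of the probe sets in each class.

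Counted by order alone, all 3 DUhTP arrays lay above all 3 DUC arrays for 14 Serpin probe sets (35.9%), against 13.6% of all probe sets, and below them for 5 (12.8%), against 15.8%. Among the 14 bright ones the numbers were 7 and 3, against 20.2% and 25.4% of all bright probe sets. The log2 fold change was positive for 27 of 39 probe sets (69.2%), against 48.1% of all. The median log2 fold change was 0.19, against -0.02 over all probe sets. Most Serpin signals were thus slightly higher in the DUhTP arrays, by amounts that for single probe sets mostly did not pass the test. Neighbouring genes of near-identical sequence can share probes, so the probe sets do not each count as separate evidence.

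**Figure D2:**
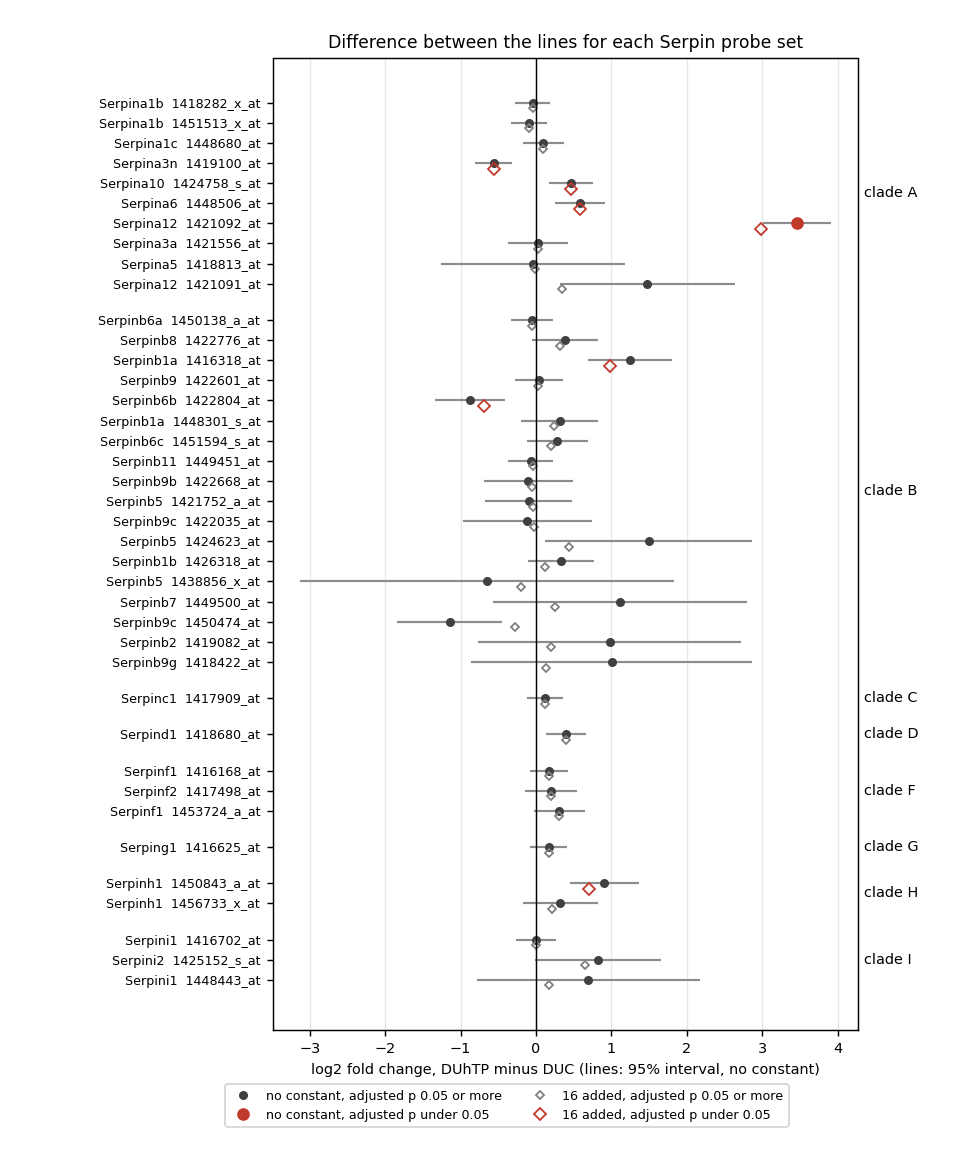
Log2 fold change, DUhTP minus DUC, of each Serpin probe set in the same order. Filled points with 95% intervals are from log2 intensity with no added constant, and open diamonds are from intensities with 16 added. Red marks an adjusted p under 0.05, reached by 1 probe set with no constant and by 7 with 16 added. Intervals widen towards the dim end of clades A, B and I.

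Serpina12 encodes vaspin, a secreted serpin first described as an adipokine of visceral fat that inhibits kallikrein 7. Its probe set 1421092_at read 451, 319 and 414 on the DUhTP arrays, against 41.7, 33.6 and 31.7 on the DUC arrays. The lowest DUhTP array lay far above the highest DUC array. The means were 395 ± 68.4 and 35.7 ± 5.32 (SD, n = 3 each). The log2 fold change was 3.46 ± 0.18 (SE), with a 95% interval of 3.01 to 3.92, which is an FC of 11.02 at a limma adjusted p of 0.00708. With 16 added the FC was 7.90 at an adjusted p of 8.35e-06. Among all 22626 probe sets this was the log2 fold change of rank 15 on the higher side and the p of rank 5. By mean log2 intensity it was a middle probe set at percentile 66.5, just under the bright class, and by mean intensity it was bright, at rank 5213. Without DUC replicate 2, when 1 of all probe sets still passed, the adjusted p was 0.0565 at a log2 fold change that stayed between 3.36 and 3.61 whichever array was left out, and the call held in the other 5 cases. With 16 added the call held in 6 of 6 cases, at an adjusted p of at most 3.04e-04.

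A second Serpina12 probe set, 1421091_at, was dim. It read 7.21, 7.21 and 11.7 on the DUhTP arrays, against 5.78, 2.88 and 1.70 on the DUC arrays. The direction was the same and the groups did not overlap, but the FC of 2.78 had an adjusted p of 0.161 in limma, and with 16 added the FC was 1.27 with an adjusted p of 0.130. In whole liver, a change in the number of cells that make a transcript and a change in RNA per cell cannot be told apart. As Serpina12 is known from fat, markers of adipocytes were read beside it. Of 7 measured adipocyte genes, 1 was called higher (Car3, a carbonic anhydrase that hepatocytes also make) and 1 lower (Lpl, lipoprotein lipase), and 2 were lower with 16 added. Over all genes on the array 3.32% had a called probe set, or 11.3% with 16 added. Their summed intensity was 10823 to 11386 in the DUhTP arrays and 5673 to 7039 in the DUC arrays, most of it from Car3. Adipoq, the adiponectin gene that defines adipocytes, was dim at 11.7, 11.6 and 2.59 against 2.03, 4.96 and 4.13, with an adjusted p of 0.445. The part of adipocyte RNA in the Serpina12 difference was not tested.

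The genes beside Serpina12 on chromosome 12 are mostly clade A serpins too. Within 10 protein-coding genes on either side, by the order in GRCm38.p6, 5 genes had a probe set and 0 of these were called in limma (1 at an unadjusted p under 0.05), with log2 fold changes from -0.05 to 0.58, while 1 (Serpina6) was called with 16 added. The closest measured ones were Serpina5 in the next place, at a log2 fold change of -0.04, and Serpina3a after it, at 0.02. On the other side Serpina1c stood at 0.10 and Serpina1b at -0.05. The difference at Serpina12 was not shared by its measured neighbours at anything like its size.

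**Figure D3:**
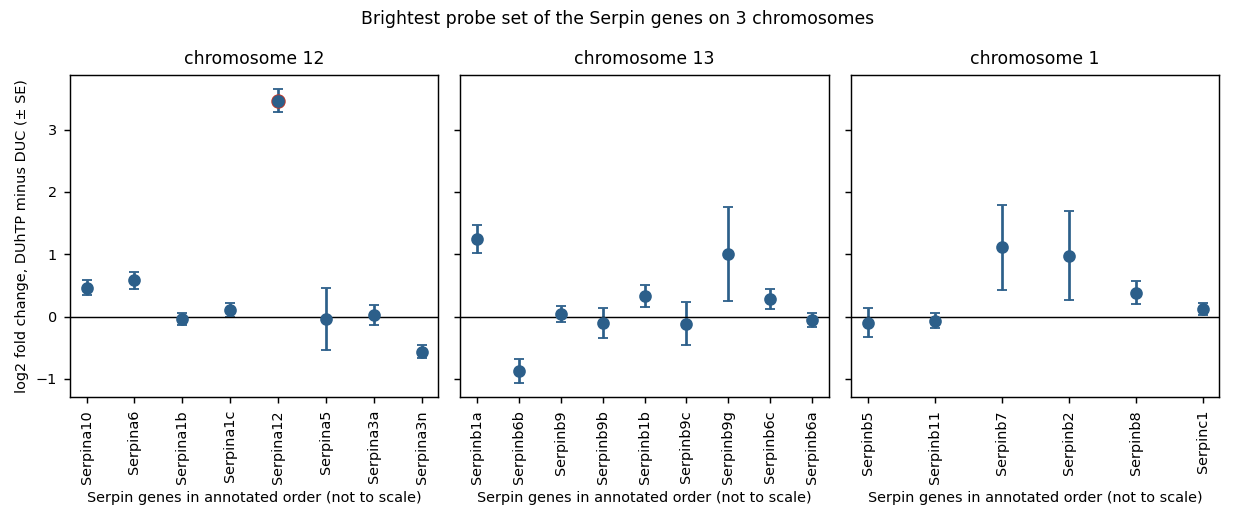
Log2 fold change, DUhTP minus DUC, with its SE for the brightest probe set of each Serpin gene, in annotated order along chromosomes 12, 13 and 1 (order only, not to scale). Serpina12, ringed in red, stands at 3.46 between Serpina1c at 0.10 and Serpina5 at -0.04.

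Serpina6 encodes corticosteroid-binding globulin, the plasma carrier of glucocorticoids and progesterone, which does not inhibit proteases. Probe set 1448506_at read 1950, 2126 and 2164 on the DUhTP arrays, against 1605, 1322 and 1256 on the DUC arrays. The lines did not overlap. The log2 fold change was 0.58 ± 0.14 (SE) and the FC 1.50, at an adjusted p of 0.0889 in limma and 0.0209 with 16 added. With 16 added the call was lost when DUhTP replicate 3, DUC replicate 2 or DUC replicate 3 was left out, at an adjusted p of up to 0.0936.

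Serpina10 encodes the protein Z-dependent inhibitor of activated coagulation factor X. Probe set 1424758_s_at read 3079, 3587 and 3369 on the DUhTP arrays, against 2535, 2494 and 2247 on the DUC arrays. Again every DUhTP array was the higher. The log2 fold change was 0.46 ± 0.12 (SE) and the FC 1.38, at an adjusted p of 0.106 in limma and 0.0359 with 16 added. That call held without DUhTP replicate 1 and was lost without any of the other 5 arrays, at an adjusted p of up to 0.136.

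Serpina3n, a mouse relative of alpha-1-antichymotrypsin that rises in the acute phase and inhibits leukocyte proteases, went the other way. Probe set 1419100_at read 2652, 2879 and 2650 on the DUhTP arrays, against 3930, 4001 and 4152 on the DUC arrays. Each line was tight and the lines were well apart. The log2 fold change was -0.56 ± 0.10 (SE) and the FC -1.48, at an adjusted p of 0.0543 in limma and 0.0109 with 16 added. With 16 added the call was lost without DUC replicate 2 or 3, at an adjusted p of up to 0.0562. Serpina3a, a neighbour of the same subfamily, was a middle probe set at 108 ± 14.1 in DUhTP and 106 ± 13.4 in DUC mice.

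Serpina1b and Serpina1c encode forms of alpha-1-antitrypsin, the main plasma inhibitor of neutrophil elastase, and were the brightest serpins on the arrays. The Serpina1b probe set 1418282_x_at read 12906, 13276 and 13266 on the DUhTP arrays, against 13594, 13570 and 13539 on the DUC arrays. All DUhTP values were lower, yet by little, with a log2 fold change of -0.05 (95% interval -0.28 to 0.19) and an adjusted p of 0.831. The other Serpina1b probe set, 1451513_x_at, stood at -0.09 with an adjusted p of 0.627, and Serpina1c at 0.10 with 0.668. These 3 probe sets held ranks 9, 11 and 12 by mean among all 22626, while the highest intensity on an array was 16787 to 17301. Whether signals so close to the top of the range still follow the RNA was not tested. Given the likeness of the paralogs, which the start regions printed above also show, their probe sets may share targets. The several-symbol probe sets 1420553_x_at (Serpina1d, Serpina1a) and 1449321_x_at (Serpina1e, Serpina1c, Serpina1b) gave log2 fold changes of -0.08 and -0.03, with adjusted p of 0.752 and 0.922.

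The last clade A gene, Serpina5, encodes the protein C inhibitor. Its probe set was dim, at 8.08 ± 3.68 in DUhTP and 8.35 ± 3.86 in DUC mice.

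**Figure D4:**
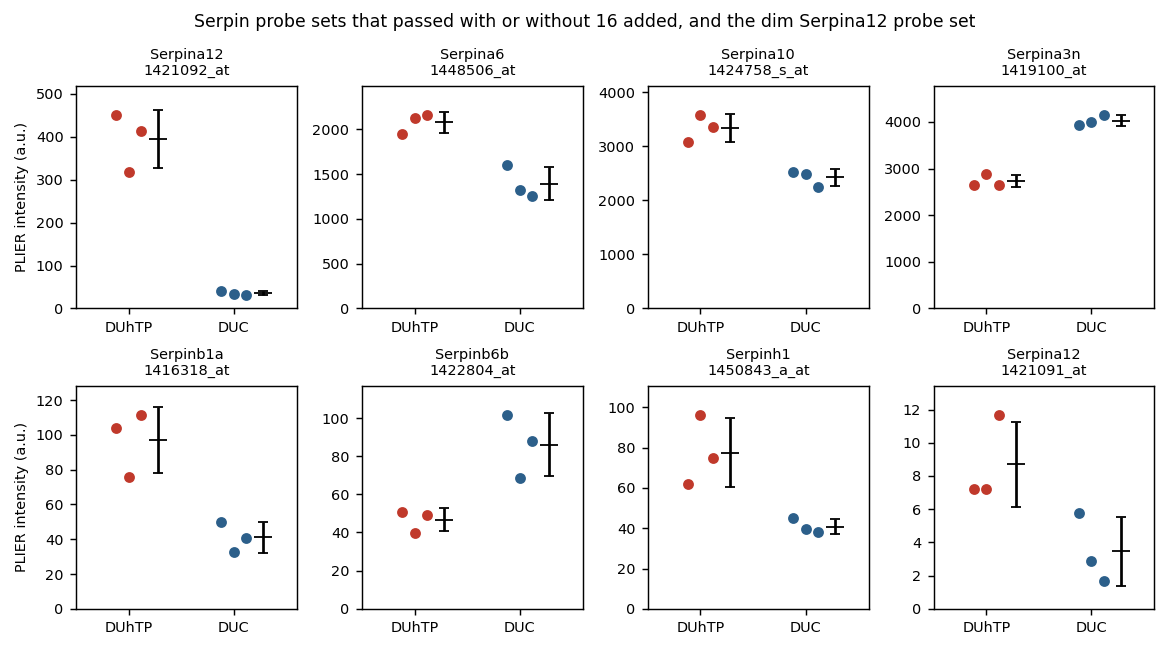
PLIER intensity (arbitrary units, linear axis from 0) in each DUhTP and DUC array for the 7 Serpin probe sets called with or without 16 added and for the dim Serpina12 probe set. Bars give the mean and SD of the 3 arrays beside each group. In all 8 panels the 2 lines do not overlap, with DUhTP lower for Serpina3n and Serpinb6b and higher for the others. The 7 were picked by their calls, so the lack of overlap adds nothing to those calls. Of all probe sets, 13.6% had all DUhTP arrays above and 15.8% all below.

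Clades C, D, F and G hold secreted serpins, of which Serpinc1, Serpind1, Serpinf2 and Serping1 restrain clotting, fibrinolysis or complement and Serpinf1 inhibits no protease. Their 6 probe sets all had positive log2 fold changes. Of these 0 were called in limma, or with 16 added, against 2.41% and 8.62% of all probe sets. The count at an unadjusted p under 0.05 was 1, against 21.1% of all probe sets. That was Serpind1, heparin cofactor II, a thrombin inhibitor. It read 3853, 3637 and 4064 on the DUhTP arrays, against 2857, 3092 and 2800 on the DUC arrays. The lines did not overlap, and the FC was 1.32, with an adjusted p of 0.120, or 0.0501 with 16 added. It passed with limma-trend (adjusted p of 0.00851) and when dim probe sets were left out (0.0483).

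Serpinc1 encodes antithrombin, the main heparin-dependent inhibitor of thrombin and factor X. It stood at 9685 ± 157 in DUhTP and 8923 ± 360 in DUC mice, a log2 fold change of 0.12 with an adjusted p of 0.542. Serping1, the C1 inhibitor that controls complement and plasma kallikrein, stood at 6913 ± 277 and 6149 ± 215, a log2 fold change of 0.17 with an adjusted p of 0.397. For both genes all DUhTP arrays were above all DUC arrays. Serpinf2, alpha-2-antiplasmin, the main inhibitor of plasmin, stood at 4977 ± 665 and 4330 ± 278, and its lines overlapped. Serpinf1 encodes pigment epithelium-derived factor, which acts on blood vessels. Its 2 probe sets had log2 fold changes of 0.17 and 0.31 without overlap, at adjusted p of 0.396 and 0.273.

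Clade B, with 18 probe sets of 14 genes, had 0 called in limma and 4 at an unadjusted p under 0.05. With 16 added 1 was called higher and 1 lower. Over all probe sets the shares were 2.41%, 21.1% and, with 16 added, 8.62% in either direction. The median log2 fold change of clade B was 0.16, or 0.07 with 16 added. Serpinb1a, an intracellular inhibitor of neutrophil elastase and cathepsin G, read 104, 75.9 and 111 on the DUhTP arrays, against 50.1, 32.4 and 40.6 on the DUC arrays on probe set 1416318_at. Every DUhTP array was above every DUC array. The log2 fold change was 1.24 ± 0.23 (SE) and the FC 2.37, at an adjusted p of 0.0547 in limma and 0.00572 with 16 added, a call that held without any single array (at most 0.0350). Its other probe set, 1448301_s_at, stood at 63.3 ± 12.1 and 50.9 ± 9.84, a log2 fold change of 0.31 with overlapping lines and an adjusted p of 0.439. The 2 probe sets of Serpinb1a thus differed in how far apart they placed the lines.

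Serpinb6b, a relative of the cathepsin G inhibitor Serpinb6a, was lower in DUhTP mice. Probe set 1422804_at read 50.9, 40.0 and 49.3 on the DUhTP arrays, against 102, 68.4 and 88.2 on the DUC arrays. The lines did not overlap, and the log2 fold change was -0.87 ± 0.19 (SE) with an FC of -1.83. The adjusted p was 0.0786 in limma and 0.0176 with 16 added, and without DUC replicate 1 or 3 that call was lost, at up to 0.0787. Serpinb6a itself, the brightest clade B member, stood at 195 ± 16.4 and 202 ± 3.79, and Serpinb6c, which lies near it, at 49.1 ± 2.41 and 40.9 ± 8.09. Paralogs of a single subfamily thus gave values on both sides of 0, at -0.87, -0.05 and 0.28 on the log2 scale.

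Of the other middle clade B genes, Serpinb8, which inhibits furin, stood at 82.1 ± 10.4 and 63.3 ± 11.8 with an adjusted p of 0.293. Serpinb9, the inhibitor of granzyme B that shields lymphocytes from their own granules, stood at 68.6 ± 1.05 and 67.1 ± 8.21. The remaining 11 probe sets, of Serpinb11, Serpinb9b, Serpinb5, Serpinb9c, Serpinb1b, Serpinb7, Serpinb2 and Serpinb9g, were dim, with mean intensities of 2.86 to 24.4. Their log2 fold changes ran from -1.15 to 1.50. In limma 0 were called with or without 16 added, with 2 at an unadjusted p under 0.05. Among all dim probe sets 0.981% were called, or 2.53% with 16 added, and 21.1% of all probe sets had such an unadjusted p. At this brightness probe sets of 1 gene differed widely. The 3 probe sets of Serpinb5, which encodes maspin, fell on both sides of 0, at -0.10, 1.50 and -0.65, and the 2 of Serpinb9c stood at -0.11 and -1.15. A probe set that carries the symbols of Serpinb9h, Serpinb9g, Serpinb9e and Serpinb9f, 1418423_s_at, was bright. It read 123, 132 and 128 on the DUhTP arrays, against 170, 165 and 198 on the DUC arrays, a log2 fold change of -0.47 with an adjusted p of 0.102, or 0.0443 with 16 added. It cannot be assigned to 1 of these genes.

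Several clade B serpins are abundant in leukocytes, so leukocyte markers were read beside it. Of 14 measured leukocyte and Kupffer cell genes 1 was called higher in DUhTP mice (Clec4f, a lectin of Kupffer cells). With 16 added 5 were higher (Clec4f, Csf1r, Adgre1, Cd68 and Cd74) and 1 lower (Marco). Over all genes 3.32% and 11.3% were called in either direction. The 14 genes summed to 4088 to 5182 in the DUhTP arrays and 2957 to 3833 in the DUC arrays. The log2 fold change was positive for 10 of the 14, while Ptprc, S100a8, S100a9 and Cd3e stood at -0.12, 0.09, 0.01 and -0.80. The part of these cells in the Serpinb1a difference was not tested.

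Serpinh1 encodes HSP47, a chaperone of the endoplasmic reticulum that binds procollagen and inhibits no protease. Probe set 1450843_a_at read 61.9, 96.2 and 74.8 on the DUhTP arrays, against 44.9, 39.4 and 38.2 on the DUC arrays. The lines did not overlap, and the log2 fold change was 0.91 ± 0.19 (SE) with an FC of 1.88. The adjusted p was 0.0715 in limma and 0.0164 with 16 added, and without DUC replicate 2 or 3 that call was lost, at up to 0.0772. The other probe set, 1456733_x_at, had a log2 fold change of 0.32 with overlapping lines and an adjusted p of 0.412.

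HSP47 works on collagen chains, and among 11 measured collagens and collagen-modifying enzymes 1 was called higher (Col3a1) and 4 with 16 added (Col3a1, Col4a1, Col4a2 and Col14a1), against 3.32% of all genes, or 11.3% with 16 added. Col3a1, the chain of type III collagen, stood at 263 ± 40.5 and 137 ± 9.77, with a log2 fold change of 0.93 and an adjusted p of 0.0434. For the brightest probe set of each gene, all 11 log2 fold changes were positive, with a median of 0.29, though Col1a1 stood at 0.00 on its brightest probe set and at -0.19 on another. Of 10 stellate cell and fibroblast markers, which include Col3a1, 1 was called higher, or 2 with 16 added. Their summed intensity was 2477 to 2993 in the DUhTP arrays and 2414 to 2762 in the DUC arrays. The part of these cells in the Serpinh1 difference was not tested.

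Clade I holds Serpini1, neuroserpin, which inhibits tissue plasminogen activator, and Serpini2, known from exocrine pancreas. The bright Serpini1 probe set, 1416702_at, stood at 141 ± 8.65 in DUhTP and 141 ± 7.25 in DUC mice, with a 95% interval of the log2 fold change of -0.27 to 0.27. Serpini2 read 55.9, 74.3 and 118 on the DUhTP arrays, against 31.6, 53.6 and 51.6 on the DUC arrays. All DUhTP values were the higher, with an FC of 1.77 and an adjusted p of 0.241, or 0.108 with 16 added. Of 11 measured markers of exocrine pancreas, 7 were called lower in DUhTP mice with 16 added, against 11.3% of all genes called in either direction. Without it 0 were called in limma, against 3.32% of all genes. An unadjusted p under 0.05 was reached by 8, against 21.1% of all probe sets. The 8 are genes, counted by any of their probe sets, so this share is not a like background. On the brightest probe sets 0 of the 11 had a positive log2 fold change, with Cela1 at -0.12. The 11 markers summed to 1060 to 4562 in the DUhTP arrays and 5304 to 10425 in the DUC arrays. The part of pancreatic RNA in the Serpini2 values was not tested.

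The proteases and partners of serpins were read from lists of genes by role. Of 15 measured plasma protease genes 2 were called higher and 0 lower, and with 16 added also 2 and 0, the latter a share near the 11.3% of all genes (3.32% without a constant). When an array was left out, 0 to 1 genes of all the partner lists together passed in place of 9, and with 16 added 11 to 24 in place of 24. These lists include the regulators and acute phase genes below. F11, the gene of coagulation factor XI, stood at 773 ± 40.9 and 448 ± 57.0, a log2 fold change of 0.79 with an adjusted p of 0.0486. Masp1, a protease of the lectin pathway of complement, was called on probe set 1425985_s_at, at 0.61 and 0.0433, while its brightest probe set stood at 0.24 with an adjusted p of 0.249. The brightest ones, Plg (plasminogen) and F2 (prothrombin), had log2 fold changes of 0.07 and 0.03.

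Beside the counts that follow, 3.32% of all genes were called in either direction, or 11.3% with 16 added. At an unadjusted p under 0.05 the share was 21.1% of all probe sets. The counts take any probe set of a gene, so this last share is not a like background. Of 15 tissue protease genes 1 was called higher, Ctsb (cathepsin B). It stood at 1.02 with an adjusted p of 0.0241 on probe set 1417491_at, while its brightest probe set stood at 0.29 with 0.217. With 16 added Ctsl (cathepsin L) and Klk1 (tissue kallikrein) were called lower, at log2 fold changes of -0.53 and -1.76 without a constant. Klk1 read 106, 27.9 and 73.8 on the DUhTP arrays, against 125, 307 and 219 on the DUC arrays. The exocrine pancreas marker Pnliprp1 read much the same on each array, at 106, 29.1 and 78.7 against 126, 300 and 227, and the part of pancreatic RNA in the Klk1 values was not tested. Of 18 inhibitors outside the family, 0 were called in limma (3 at an unadjusted p under 0.05), or 1 lower (Timp3) with 16 added, and Pzp and Ahsg, the brightest, stood at -0.07 and -0.11. Of 12 cofactors and clearance genes 0 were called in limma (3 at an unadjusted p under 0.05), or 1 lower with 16 added (Pros1, protein S). Of 16 genes of secretory quality control, which folds and exports serpins, 0 were called with or without 16 added. The list is too short to tell 0 from the 3.32% and 11.3% of all genes. At an unadjusted p under 0.05 there were 2, against 21.1% of all probe sets. The brightest genes of this list, P4hb (protein disulfide isomerase) and Hspa5 (the chaperone BiP), stood at 0.21 and -0.35.

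Among 18 measured regulators of liver serpin genes 1 was called lower, Il1r1, the receptor of interleukin-1, at 77.3 ± 21.1 and 233 ± 31.3, a log2 fold change of -1.62 with an adjusted p of 0.0320. With 16 added 5 were lower (Il1r1, Cebpb, Cebpd, Hnf4a and Il6ra) and 2 higher (Bcl6 and Ghr, the growth hormone receptor), against 11.3% of all genes called in either direction, or 3.32% without a constant. Cebpb and Cebpd, acute phase transcription factors, stood at -0.91 and -1.45, with adjusted p of 0.0732 and 0.0552. Serpina3n was also lower, whereas of 17 acute phase genes outside the family 4 were called higher and 0 lower, or 6 higher with 16 added, against 3.32% and 11.3% of all genes in either direction. The 4 were Apcs (serum amyloid P) at 1.30 with an adjusted p of 0.0267, Saa1 at 1.08 with 0.0331, Orm3 at 1.67 with 0.0324 and Saa2 at 0.93 with 0.0448. Saa1 and Saa2 are near-identical and may share signal. The brightest genes of this list, Fgb and Fgg (fibrinogen chains), stood at -0.19 and 0.00. Serpina3n thus lay on the other side of 0 from the 4 called acute phase genes. On the brightest probe sets the log2 fold change was positive for 11 of the 17 genes of the list.

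The tissue label was checked by markers. The 9 measured hepatocyte markers were all bright, and 1 was called lower in DUhTP mice (Tat, tyrosine aminotransferase), or 2 with 16 added. Over all genes 3.32% were called in either direction, or 11.3% with 16 added, and 21.1% of all probe sets had an unadjusted p under 0.05. The marker counts are of genes, by any probe set, so this last share is not a like background. The hepatocyte markers summed to 76280 to 79821 in the DUhTP arrays and 84119 to 88747 in the DUC arrays. Tat, Tdo2 and Cps1 had log2 fold changes of -0.88, -0.57 and -0.33, while Alb, Apoa1 and Ttr stood at -0.03, 0.00 and 0.07. The log2 fold change was positive for 3 of the 9. Endothelial markers gave 0 of 10 called in limma (1 at an unadjusted p under 0.05), or 1 higher with 16 added, and summed to 3344 to 3668 against 2998 to 3181. Cholangiocyte markers gave 0 of 5 called, also at an unadjusted p under 0.05, and summed to 110 to 154 against 129 to 143. Of 3 erythroid markers Alas2 was higher, at a log2 fold change of 0.88. The part of these cell types in the Serpin differences was not tested.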

How the data were processed

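Liver RNA of 3 DUhTP and 3 DUC arrays was measured by GeneChip. The submitters' processing notes name GCOS 1.1.1, in which the authors brought all arrays to a common target signal. Probes were then summarised with PLIER, and the deposited values are linear intensities in arbitrary units. The PLIER version and any added constant are not given in the sources used here. The 64 control probe sets of 22690 were left out. Log2 of the intensity was compared in limma 3.58.1 (lmFit, eBayes, 2-sided) under R 4.3.3, without a block, and p was adjusted by Benjamini-Hochberg over 22626 probe sets. A gene was called when 1 of its probe sets had an adjusted p under 0.05. The procedure was tested on simulated data.

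Gene symbols are those of the array annotation, and all 30 Serpin symbols matched the GRCm38.p6 annotation, which has 69 genes with such symbols. Marker sums use the brightest probe set of each gene. The Serpin probe sets and the gene lists were chosen with earlier results of these data known. Named in full were Serpin probe sets called with or without 16 added, both Serpina12 probe sets and the brightest probe set per clade, and from each list of partners the called genes and up to 2 of the brightest, and further list genes were picked with their values known. The alternatives were 16 added, limma-trend, quantile normalization, blocking by replicate number, leaving out the dim class or probe sets with suffix _x_at or _s_at, whose probes may fit more than 1 transcript, mean intensity in place of mean log2 for brightness, and leaving out each array in turn. The number of arrays limits the precision.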

Additional observations from a re-analysis of the deposited data

How the results depend on the processing

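The main analysis called 1 Serpin probe set, and so 1 gene. The number was 7 with 16 added, 8 with limma-trend, 2 with quantile normalization (Serpina12 and Serpinb1a) and 8 without the dim class, for probe sets and genes alike. It was 0 to 1 when an array was left out (0 without DUC replicate 2), and 2 to 8 when an array was left out and 16 added. At an FC over 2, where 1 was called, it was 2 with limma-trend, quantile normalization or without the dim class, 0 to 1 when an array was left out, and 1 to 2 with 16 added as well. Over all probe sets 546 were called, against 1951 with 16 added, 2350 with limma-trend, 1851 without the dim class, 1 to 122 when an array was left out, and 771 to 1591 when 16 was added as well. Among genes of the partner lists, regulators and acute phase genes included, 9 were called, against 24, 26 and 24 under the same 3 settings. The number was 0 to 1 when an array was left out, and 11 to 24 with 16 added as well. The median log2 fold change of the Serpin probe sets, 0.19, was 0.23 with quantile normalization, 0.19 to 0.25 when an array was left out, and 0.12 to 0.15 with 16 added as well. The cause of these shifts was not tested.

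Of 15 Serpin probe sets followed under up to 18 alternatives each (3 probe sets have no value under an alternative that leaves them out), 212 values kept direction and side of the threshold, 43 passed it newly, 2 no longer passed it and 10 changed sign. The sign changed for the bright Serpini1 probe set 1416702_at (-0.0352 to 0.0514 when an array was left out) and Serpinb6a (-0.109 to 0.0126).

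The sources do not state that the replicate numbers pair the arrays. Deviations of same-numbered arrays from their line means correlated at 0.00341, 0.00480 and 0.0667, and only the arrays numbered 3 correlated best with each other. With 3 arrays per line these correlations cannot settle whether same-numbered arrays belong together. A block for the replicate number called 0 Serpin probe sets, genes or genes at an FC over 2. It called 0 genes of the partner lists and 0 of all probe sets, and gave Serpina12 a limma adjusted p of 0.0883.

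With 3 arrays per line, dim probe sets could not be compared well, as their SD between arrays was the largest.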
